A study of Homo sapiens with 26 samples.

Results

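TMPRSS2, RIPK4, PRDM15, C2CD2 and ZBTB21 are 5 protein-coding genes that follow each other on the minus strand of the long arm of chromosome 21 (21q22), in the stretch chr21:41464300-42010387 of GRCh38 (546 kb). Their rows were found by Ensembl identifier among the 41078 genes of the deposited table, and all 5 were present. From left to right they are TMPRSS2 (ENSG00000184012) at chr21:41464300-41531116, RIPK4 (ENSG00000183421) at chr21:41739369-41767089, PRDM15 (ENSG00000141956) at chr21:41798225-41879482, C2CD2 (ENSG00000157617) at chr21:41885112-41954018 and ZBTB21 (ENSG00000173276) at chr21:41986831-42010387 (gene positions of GENCODE 44). They had been chosen because of their values in these same libraries: all were at or near 0 in 12 libraries and expressed in the other 14. Each library was made from the polyadenylated RNA of 1 single cell-derived cell line (SCDCL), a clone grown from 1 cell by limiting dilution of BxPC3 or Panc-1, both established lines of pancreatic ductal adenocarcinoma. Of 26 libraries, 12 are labelled BxPC3 and 14 are labelled Panc1 (Panc-1), and each SCDCL was sequenced once, so that every spread below is one between libraries, in which differences between clones and between preparations of 1 clone cannot be told apart. All 26 labels carry the same treatment entry, gemcitabine (a deoxycytidine analog), which the methods mention for viability assays alone, so no group differs from another by treatment. Library totals ranged from 27035724 to 34945608 estimated counts, with a median of 29623513.

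The labels and the expression of SMAD4 went against each other in many libraries, and the split used here therefore follows SMAD4. SMAD4 encodes the shared mediator of TGF-beta signaling, and BxPC3 is known to have lost this gene whereas Panc-1 carries it. SMAD4 was between 0 and 0.044 TPM (abundance per transcript length, scaled to the library) in 12 libraries and between 28.1 and 52.2 TPM in 14. The 12 SMAD4-low libraries (SMAD4 TPM under 1) comprised 5 with the label BxPC3 and 7 with the label Panc-1, and the 14 SMAD4-expressing libraries held 7 of each label. VIM, which encodes the mesenchymal filament vimentin, followed the same split, with 1.42 to 73.2 TPM in the SMAD4-low libraries and 3047 to 4526 TPM in the others. E-cadherin (CDH1) was at 90.8 to 198 TPM in the SMAD4-low libraries and at 0.338 to 7.74 TPM in the others. Lines are therefore named below only as the libraries labelled BxPC3 or Panc-1.

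The 5 genes have separate functions and are neighbours rather than a family. TMPRSS2 encodes a type II transmembrane serine protease of epithelial surfaces that is androgen-regulated in the prostate and activates viral surface proteins. RIPK4 encodes a kinase of the receptor-interacting protein (RIP) family with ankyrin repeats, which acts in epidermal differentiation. PRDM15 encodes a zinc finger protein of the PRDM family of transcriptional regulators, ZBTB21 encodes a zinc finger protein with a BTB domain, and C2CD2 encodes a membrane-associated protein with a C2 domain.

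Start regions are shown for PRDM15, C2CD2 and ZBTB21, the only genes of the stretch for which one was available. All 5 genes shared the pattern across libraries, so that it does not set these 3 apart. The sequences are from RefSeq (GRCh38.p14), which gave 3 of the 5 genes, and each runs from 250 bases before to 50 bases after the annotated start, 5′ to 3′ on the minus strand, with the palindrome CACGTG (an E-box) in capitals.
PRDM15 chr21:41879295-41879594: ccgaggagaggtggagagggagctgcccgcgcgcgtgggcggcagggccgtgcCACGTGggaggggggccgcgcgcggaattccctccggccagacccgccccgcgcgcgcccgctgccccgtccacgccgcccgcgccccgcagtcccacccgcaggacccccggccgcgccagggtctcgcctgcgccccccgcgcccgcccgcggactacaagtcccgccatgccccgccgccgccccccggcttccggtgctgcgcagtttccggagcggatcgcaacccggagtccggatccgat
C2CD2 chr21:41953969-41954268: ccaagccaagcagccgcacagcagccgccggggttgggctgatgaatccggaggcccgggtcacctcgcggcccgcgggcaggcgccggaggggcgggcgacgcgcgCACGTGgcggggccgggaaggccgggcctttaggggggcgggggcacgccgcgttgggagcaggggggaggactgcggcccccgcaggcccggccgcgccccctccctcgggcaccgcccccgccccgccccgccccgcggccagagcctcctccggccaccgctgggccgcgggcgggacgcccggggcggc
ZBTB21 chr21:42010311-42010610: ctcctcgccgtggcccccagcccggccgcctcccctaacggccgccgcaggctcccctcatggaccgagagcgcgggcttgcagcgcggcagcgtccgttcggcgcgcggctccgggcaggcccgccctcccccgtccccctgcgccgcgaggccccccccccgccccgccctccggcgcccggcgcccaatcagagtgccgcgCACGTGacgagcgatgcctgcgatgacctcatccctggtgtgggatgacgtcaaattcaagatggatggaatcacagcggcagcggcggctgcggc
CACGTG occurred once in each of the 3, at position 54 in PRDM15, 108 in C2CD2 and 205 in ZBTB21, counted from 1 at the 5′ end. Of all 35116 promoters of this length in the RefSeq table, 7.26% held CACGTG, which reads the same on both strands, and this motif was chosen after the sequences had been seen. The 3 regions shown were rich in G and C, with 80.0%, 83.3% and 75.3% against a median of 58.7% over all promoters, and held 49, 44 and 41 CpG dinucleotides. GGGCGG, on either strand, occurred 5, 8 and 3 times, and 45% of all promoters held it. The ZBTB21 region alone of the 3 held TGACGTCA and CCAAT, on either strand, once each, which 1.85% and 34.6% of all promoters held. TATAAA (in 4049 of all promoters) and CACCTG (in 7231), on either strand, were found in none of the 3. PRDM15 and C2CD2 each have a further start in the table, and these regions differed from those shown. The further PRDM15 region held 46.3% G and C, 2 CpG dinucleotides, and 1 occurrence each of CACGTG, of TATAAA and of CACCTG, and that of C2CD2 held 40.0% G and C, 2 CpG dinucleotides and no CACGTG. A match to a motif is a description of the sequence and not a bound site.

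**Figure D1:**
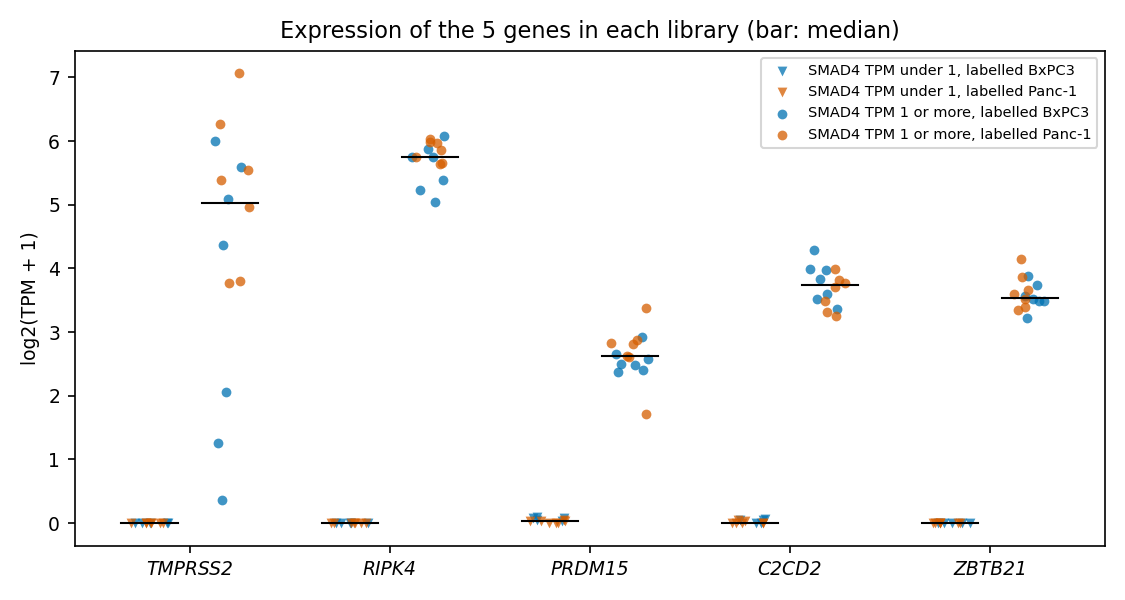
Expression of the 5 genes in each library as log2(TPM + 1), with triangles for the 12 SMAD4-low libraries, circles for the 14 SMAD4-expressing libraries, colours for the label and bars for the medians. All triangles lie at or near 0, and the circles of TMPRSS2 spread far more than those of the other 4 genes.

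TMPRSS2, RIPK4 and ZBTB21 were counted 0 times in every one of the 12 SMAD4-low libraries, in the 5 labelled BxPC3 as in the 7 labelled Panc-1. In the 14 SMAD4-expressing libraries the lowest, median and highest values were 0.286, 31.6 and 133 TPM for TMPRSS2. For RIPK4 they were 31.9, 52.9 and 66.8 TPM. For ZBTB21 they were 8.32, 10.6 and 16.75 TPM. The lowest of these libraries held 16.34 estimated counts of TMPRSS2, 2699 of RIPK4 and 662 of ZBTB21, so that no SMAD4-expressing library was without any of the 3. A count of 0 still allows up to 3 counts in a library, which is 0.114 CPM (estimated counts relative to the TMM-adjusted library size) in the SMAD4-low library where this limit is highest. Against this limit the median of the 14 libraries was at least 542-fold higher for TMPRSS2, at least 1380-fold higher for RIPK4 and at least 242-fold higher for ZBTB21. In bulk RNA, fewer expressing cells and less RNA per cell cannot be told apart.

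PRDM15 and C2CD2 were nearly but not wholly absent from the SMAD4-low libraries. PRDM15 had 0.822, 3.37 and 7.48 estimated counts as lowest, median and highest value over these 12 libraries, and 8 of them exceeded 3 counts. In the 14 SMAD4-expressing libraries it had 309, 652 and 1107 estimated counts, or 2.27, 5.14 and 9.39 TPM. C2CD2 was at 0 in 7 of the 12 SMAD4-low libraries and had at most 2.76 counts in the other 5. It had 572, 826 and 1363 counts, or 8.53, 12.34 and 18.6 TPM, in the SMAD4-expressing libraries. Pooled over libraries, the ratio of SMAD4-expressing to SMAD4-low was 178 for PRDM15 (95% interval for counting error only, 133 to 244) and 886 for C2CD2 (507 to 1714). The few PRDM15 counts of the SMAD4-low libraries were assigned to longer transcripts, with a mean effective length of 7150 to 7280 bases, than those of the SMAD4-expressing libraries, with 3573 to 6112 bases. Both ratios use counts corrected for this length, and their intervals do not cover the correction. Repeat quantifications deposited by the authors lack it. In these the mean of SMAD4-expressing against SMAD4-low libraries was 17.4 against 0.156 CPM for PRDM15 and 28.1 against 0.0376 CPM for C2CD2.

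None of the 5 genes overlapped between the 2 sets of libraries, which is the pattern they were chosen for. Among all 16008 genes with enough counts for testing, 15.4% were higher in every SMAD4-expressing than in every SMAD4-low library and 14.6% were lower, so nothing is read from the count of 5. The count was also 5 where SMAD4 does not contradict the label (5 labelled BxPC3 and 7 labelled Panc-1) and where it does (7 and 7). Both counts follow from the absence of overlap over all libraries and add nothing to it. The stricter pattern of under 10 counts in every SMAD4-low library and at least 10 in every other held for 232 genes (1.45%), and the 5 genes were among them. With 0 counts in all SMAD4-low libraries, 51 genes (0.319%) had that pattern, TMPRSS2, RIPK4 and ZBTB21 included.

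The 5 genes formed an unbroken run along the chromosome. Among the 11962 protein-coding genes with at least 10 counts in all 14 SMAD4-expressing libraries, 156 had under 10 counts in all 12 others. When genes were ordered by position, these 156 formed 15 runs of 2 or more neighbours, 5 of 3 or more and 2 of 4 or more. The run from TMPRSS2 to ZBTB21 was the only run of 5, and the next longest held CDH23, VSIR, PSAP and CHST3 on chromosome 10. SMAD4 itself stood in a run of 3 with ELAC1 and MEX3C on chromosome 18. Because the stretch was chosen for this pattern, its length is a description and was not tested.

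None of the detected genes around the stretch shared the pattern. Of 17 other protein-coding genes that start within 1 Mb of it, 12 were detected with a median of at least 10 counts on either side of the split, and 11 of these were detected in the SMAD4-low libraries. None of the 12 was higher without overlap in the SMAD4-expressing libraries (15.4% of all genes), 4 were lower (14.6% of all genes) and 8 overlapped. Among the 8, TFF3, which encodes a trefoil peptide of mucosal surfaces, had a median of 0 counts in the SMAD4-low and 24.67 counts in the SMAD4-expressing libraries, with a highest SMAD4-low value of 18.46 counts. The 4 were MX1, TMPRSS3, SLC37A1 and PDE9A. The shares are of the 16008 genes with enough counts for testing, a filter that differs from the one used for the 12. TMPRSS3 did not pass that filter, so counts and shares are not on the same set of genes. MX1, an interferon-induced GTPase with antiviral activity and the nearest gene before TMPRSS2, had 15.1 to 353 TPM in the SMAD4-low libraries and 3.22 to 8.40 TPM in the others. SLC37A1, a sugar-phosphate transporter gene, had 7.53 to 24.0 against 0.268 to 4.203 TPM. UMODL1, the nearest gene after ZBTB21, was at 0 in the SMAD4-low libraries and had 0 to 15.28 counts in the others, so that the end of the silent stretch on this side could not be set at this depth. The next gene, ABCG1, which encodes a cholesterol exporter, had 2.61 to 350 counts in the SMAD4-low libraries. Farther out, WDR4 (12.4 to 28.1 against 24.52 to 38.8 TPM), NDUFV3 (9.64 to 20.93 against 12.8 to 18.1 TPM) and PKNOX1 (6.09 to 20.4 against 9.03 to 16.6 TPM) were expressed in all 26 libraries.

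**Figure D2:**
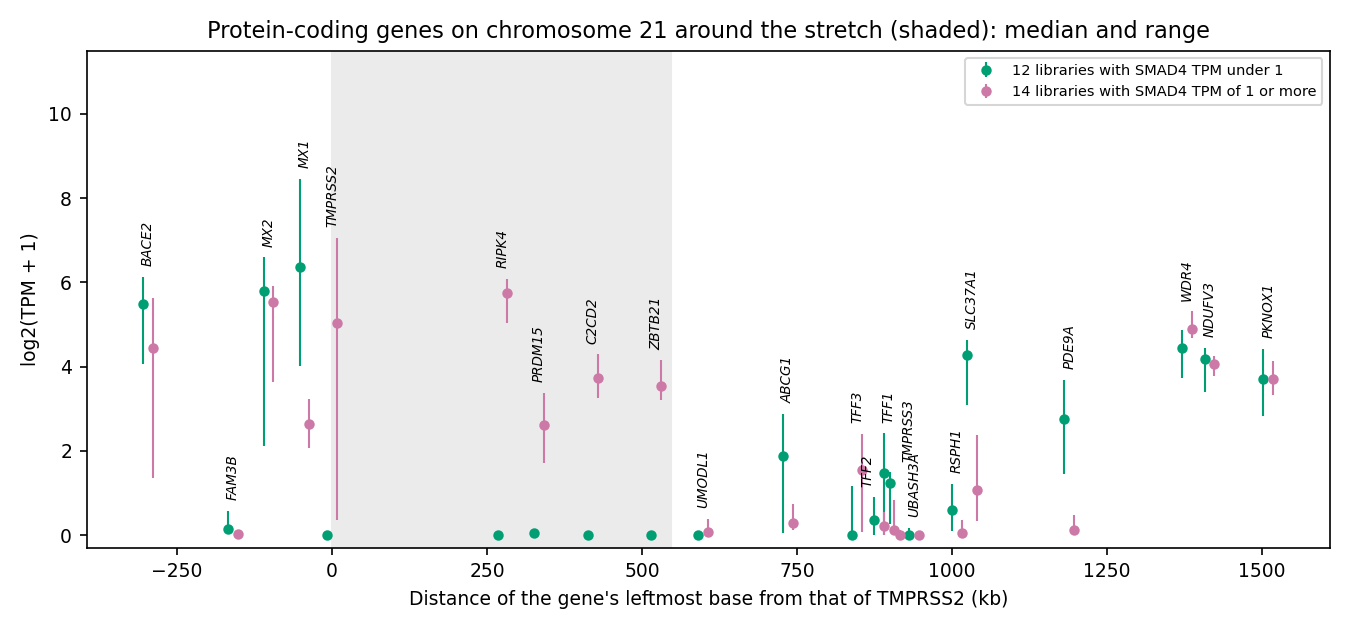
Median and range of log2(TPM + 1) for the 5 genes (shaded) and the 17 protein-coding genes around them, by distance in kb of the leftmost base of each gene from that of TMPRSS2, with the points of each gene set slightly apart sideways. The 12 SMAD4-low libraries are at or near 0 across the shaded stretch and at UMODL1 next to it, whereas MX1 before the stretch was expressed in all 12 and ABCG1 ranged from near 0 upward.

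MX1 and TMPRSS2 lie tail to tail on opposite strands and overlap by 5772 bases. The libraries kept the strand, but whether the quantification used it is not given in the sources used here. TMPRSS2 was at 0 in all 12 libraries where MX1 had 282 to 5192 estimated counts. MX1 had 48.9 to 128 counts in the 14 libraries where TMPRSS2 was expressed. Reads of MX1 were thus not counted as TMPRSS2 in the SMAD4-low libraries.

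TMPRSS2 varied far more among the 14 SMAD4-expressing libraries than the other genes of the stretch did. The variation of TMPRSS2 and RIPK4 among these libraries was part of the choice of the stretch. Their spread and its rank among all genes are therefore a description. Its values spanned 464-fold in TPM, from 0.286 TPM in library 18 to 133 TPM in library 14. RIPK4 spanned 2.10-fold, PRDM15 4.14-fold, C2CD2 2.18-fold and ZBTB21 2.01-fold. The SD of log2(CPM + 1) over the 14 libraries was 2.12 ± 0.465 (jackknife SE, n = 14) for TMPRSS2, against 0.31 ± 0.058 for RIPK4. It was 0.39 ± 0.126 for PRDM15, 0.29 ± 0.0501 for C2CD2 and 0.25 ± 0.0492 for ZBTB21. Across the 9936 genes whose mean was 10 CPM or more, the median SD was 0.26, and TMPRSS2 had the seventh largest, above 99.9% of these genes. The SD of RIPK4, PRDM15, C2CD2 and ZBTB21 exceeded that of 67.8%, 81.7%, 59.8% and 46.8% of the genes. The deposited repeat quantifications of each library, which the authors made to measure counting and assignment error, had an SD of 0.0721 for TMPRSS2 and 0.024 for RIPK4, and the SD between libraries was 29.4 and 13.13 times this error, which holds no difference between preparations. The same ratio was 6.69 for C2CD2, 4.94 for ZBTB21 and 2.67 for PRDM15. In these ratios the SD between libraries is of length-corrected counts, whereas the repeats are not length-corrected. The error added by that correction is not measured, and the ratio of PRDM15 would be smaller without the correction.

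**Figure D3:**
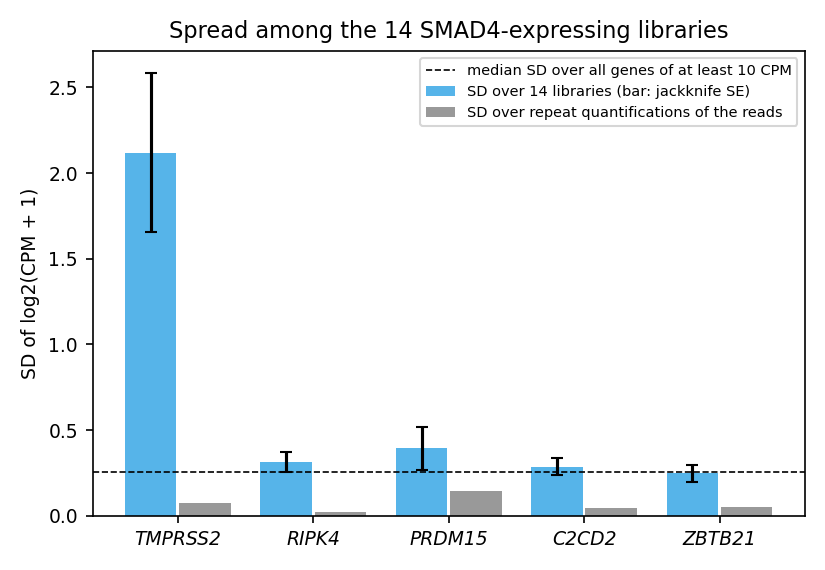
SD of log2(CPM + 1) over the 14 SMAD4-expressing libraries with its jackknife SE (blue), and the SD over 5 repeat quantifications of each library (grey), for each gene. The dashed line is the median SD of 0.26 over 9936 genes, which only TMPRSS2 exceeds by a wide margin.

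Libraries 18, 23 and 22, all labelled BxPC3, were the lowest for TMPRSS2 with 0.286, 1.40 and 3.18 TPM. The other 11 SMAD4-expressing libraries, 4 labelled BxPC3 and 7 labelled Panc-1, lay between 12.6 and 133 TPM (median 40.7). The same 3 libraries were the lowest for RIPK4, with 31.9, 41.0 and 36.4 TPM, below the 48.8 to 66.8 TPM of the other 11. Without them TMPRSS2 spanned 10.54-fold with an SD of 1.00, and RIPK4 spanned 1.37-fold with an SD of 0.17. The 3 libraries were not low in the rest of the stretch. PRDM15 was at 4.21 to 5.34 TPM and ZBTB21 at 10.23 to 12.37 TPM in them, inside the ranges of the other 11, and C2CD2 was at 11.1 to 18.6 TPM, with its highest value of all in library 23.

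**Figure D4:**
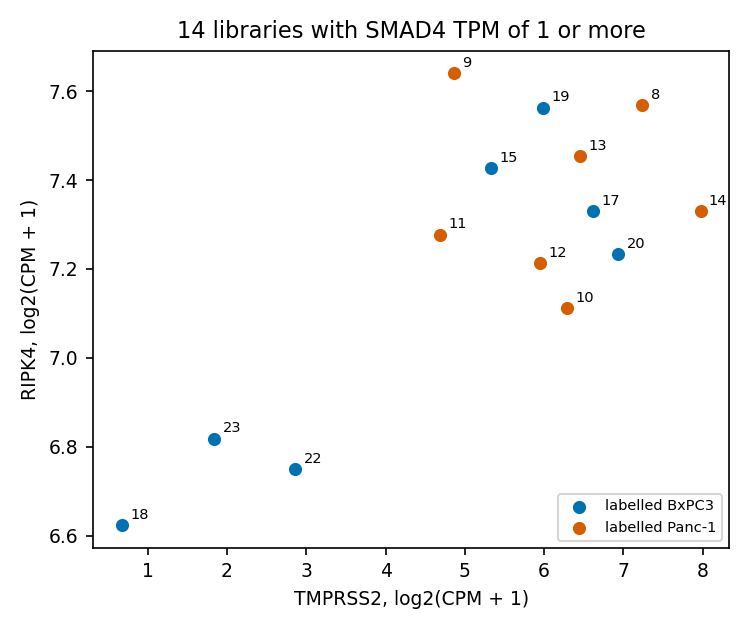
TMPRSS2 against RIPK4 as log2(CPM + 1) in the 14 SMAD4-expressing libraries, numbered and coloured by label. Libraries 18, 22 and 23 are the lowest for both genes, at the lower left, and r was 0.765 with them and -0.152 in the other 11.

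Over all 14 libraries TMPRSS2 and RIPK4 were correlated, with a Pearson's r of 0.765 (permutation p = 0.00236, adjusted p = 0.0236 over 10 pairs) and a Spearman's rho of 0.508 (permutation p = 0.0667, adjusted p = 0.333). It was the only 1 of the 10 pairs past an adjusted p of 0.05 by Pearson's r, and by Spearman's rho no pair was. The variation of TMPRSS2 and RIPK4 among the 14 libraries was part of the choice of the stretch. P-values for this pair are therefore a description and not independent support. Without the 2 libraries farthest from the median of TMPRSS2, r was 0.464 (permutation p = 0.131), so that the call rested on those libraries. In the 11 libraries other than 18, 22 and 23, r was -0.152 and rho -0.0091, given without a test since the 3 were left out for their low values of these genes. Among the 7 libraries labelled BxPC3, which include them, r was 0.889 (permutation p = 0.022, adjusted over 20 within-label correlations 0.434), and among the 7 labelled Panc-1 it was -0.0339 (permutation p = 0.94).

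The remaining pairs showed no relation past the threshold. Over all 14 libraries, r for TMPRSS2 with C2CD2 was -0.27 (adjusted p = 0.757, permutation test), and for TMPRSS2 with PRDM15 it was 0.394 (adjusted p = 0.757, permutation test). In the same 11 libraries, again as a description, r was 0.681 for TMPRSS2 with C2CD2 and 0.631 for TMPRSS2 with PRDM15, so that the sign of the former depended on libraries 18, 22 and 23. The members were at or near 0 in the SMAD4-low libraries, and no correlation could be computed there.

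In median level per transcript length, the 14 libraries placed RIPK4 first, then TMPRSS2, C2CD2, ZBTB21 and PRDM15. This order was read from the same libraries, and the variation of TMPRSS2 and RIPK4 was part of the choice of the stretch. P-values for neighbouring pairs in this order are therefore a description and not independent support. RIPK4 exceeded TMPRSS2 in 11 of 14 libraries by a mean of 1.57 ± 2.21 (SD) in log2 TPM (exact permutation test by sign, two-sided, p = 0.011, adjusted over 4 neighbouring pairs 0.022). Without libraries 18, 22 and 23 this mean was 0.61 ± 1.05 (8 of 11 libraries), and that of TMPRSS2 over C2CD2 was 1.69 ± 0.86 (11 of 11 libraries), both given without a test. ZBTB21 exceeded PRDM15 in 14 of 14 libraries, by a mean of 1.12 ± 0.49 in log2 TPM (exact p = 0.000122, adjusted 0.000488). C2CD2 and ZBTB21 did not differ beyond their spread (9 of 14 libraries, mean 0.11 ± 0.34, exact p = 0.239, adjusted 0.318), nor did TMPRSS2 and C2CD2 (11 of 14 libraries, mean 0.53 ± 2.55, exact p = 0.451).

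The spread of PRDM15 and C2CD2 depended on the transcripts to which reads were assigned. PRDM15 was highest in library 14 and lowest in library 9, with 9.39 and 2.27 TPM. Its mean effective transcript length was 3573 bases in library 14 and 6112 in library 9, the shortest and the longest of the 14. The deposited estimated counts correct for this length, and gave 37.8 CPM in library 14 and 10.4 in library 9. The repeat quantifications, which are not length-corrected, gave 22.54 and 10.68 CPM. The SD of log2(CPM + 1) of PRDM15 was 0.39 with the length correction and 0.28 without it. For C2CD2, whose effective length ranged from 1959 to 3985 bases, it was 0.29 with and 0.33 without. For RIPK4, with 4103 to 4177 bases, the SD was 0.31 either way.

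None of the 5 genes passed the test between labels, which had little means to find them. The label BxPC3 held 5 SMAD4-low and 7 SMAD4-expressing libraries and the label Panc-1 held 7 of each. The on-off pattern of the 5 genes was therefore spread over both labels. Because SMAD4 went against many labels, no conclusion on BxPC3 and Panc-1 as lines is drawn from this test. With all 26 libraries, edgeR's quasi-likelihood test with Benjamini-Hochberg adjustment called 0 of 5 between labels and 0 (0%) of 16008 genes, with 367 genes at an unadjusted p under 0.05. The log2 fold change of libraries labelled Panc-1 over BxPC3 was 0.82 ± 1.47 (SE) for TMPRSS2, 0.01 ± 1.44 for RIPK4, -0.01 ± 1.07 for PRDM15, -0.41 ± 1.24 for C2CD2 and -0.11 ± 1.32 for ZBTB21, each with an adjusted p of 1.00. DESeq2 called 2 genes and limma 0, and none was one of the 5.

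Within the 14 SMAD4-expressing libraries the errors were smaller, and again none of the 5 genes was called by edgeR. TMPRSS2 had a lowest, median and highest value of 0.286, 19.74 and 63.4 TPM in the 7 libraries labelled BxPC3 and 12.6, 40.7 and 133 TPM in the 7 labelled Panc-1. These ranges overlapped, and the log2 fold change was 1.03 ± 0.84 (edgeR adjusted p = 0.982). RIPK4 had 31.9, 52.6 and 66.8 TPM in those labelled BxPC3 and 48.8, 57.2 and 64.3 TPM in those labelled Panc-1, with a log2 fold change of 0.23 ± 0.15. The log2 fold changes of PRDM15, C2CD2 and ZBTB21 were 0.21 ± 0.20, -0.19 ± 0.15 and 0.11 ± 0.14. The edgeR adjusted p was 0.982 for RIPK4, PRDM15 and C2CD2 and 0.986 for ZBTB21. In this comparison 0 (0%) of 15161 genes were called by edgeR, 1 by DESeq2 and 0 by limma, with 700 genes at an unadjusted p under 0.05.

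In the 12 SMAD4-low libraries none of the 5 genes had enough counts to be tested, and 0 (0%) of 16124 genes were called by edgeR, with 1840 at an unadjusted p under 0.05, 11 called by DESeq2 and 0 by limma. PRDM15 had 3.31 to 7.48 counts in the 5 SMAD4-low libraries labelled BxPC3 and 0.822 to 5.01 in the 7 labelled Panc-1, which overlapped. A test of whether the label difference itself differed across the split could not be estimated for TMPRSS2, RIPK4 and ZBTB21, which are at 0 on one side. It gave a difference of -1.36 ± 0.46 in log2 for PRDM15 (p = 0.00641, edgeR adjusted p = 0.608) and an edgeR adjusted p of 0.782 for C2CD2. No gene (0% of 17456) was called by edgeR in this test, with 1357 at an unadjusted p under 0.05 and 13 called by DESeq2.

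Some genes followed TMPRSS2 closely across the 14 SMAD4-expressing libraries. Among 9523 genes, ranks were most like those of TMPRSS2 for ABCA13 and SLC29A3 (Spearman's rho 0.908 each), TMEM131L (0.899), RGPD6 (0.895, a gene with near-identical copies whose reads could be split) and VSIR (0.890). VSIR, which encodes an immune checkpoint ligand, was at 0 in all SMAD4-low libraries, as TMPRSS2 was. Ranks ran most opposite for NSMCE1 (-0.921), AMIGO2 (-0.908) and LSM10 (-0.886). RIPK4 was most like MB, which encodes myoglobin (0.908), LAMTOR1 and OGDH (0.868 each), CYB561 (0.859) and PRDX5 (0.851), and most opposite to POLQ (-0.824), ZC3H18 (-0.815) and HIP1R (-0.807). These are descriptions over 14 libraries that share their handling, selected as extremes from 9523 genes.

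The relatives and partners of TMPRSS2 were set beside it by the same comparison of ranges, in which 15.4% of all genes were higher and 14.6% lower in the SMAD4-expressing libraries. Of 17 genes for type II transmembrane serine proteases, 5 had enough counts, of which 1 (TMPRSS2, chosen for this pattern) was higher in the SMAD4-expressing libraries, 2 were lower and 2 overlapped. TMPRSS4 had 13.8 to 94.1 TPM in the SMAD4-low libraries and 0.0182 to 0.156 TPM in the others. ST14, which encodes matriptase, had 116 to 246 TPM in the SMAD4-low libraries and 0.0927 to 1.495 TPM in the others. TMPRSS2 thus was the type II protease gene of the SMAD4-expressing libraries with the highest median (31.6 TPM), and ST14 and TMPRSS4 were those of the SMAD4-low libraries (202 and 49.2 TPM). Of 7 tested genes for inhibitors, partners and substrates, F2RL1, which encodes a receptor cleaved by such proteases, was higher (121 to 544 against 20.73 to 56.4 TPM). The inhibitor SPINT1 (9.13 to 60.2 against 296 to 519 TPM) and the protease PRSS8 (0.0227 to 0.149 against 28.7 to 63.5 TPM) were lower, and 4 overlapped, among them SPINT2 at 649.7 to 1719.9 against 1135 to 1911 TPM.

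The relatives of RIPK4 and the epithelial regulators to which it is linked went in different directions. Of 6 RIP kinase genes, 5 were tested: RIPK1 (23.22 to 32.6 against 10.8 to 17.8 TPM), DSTYK (5.36 to 8.08 against 2.95 to 4.65 TPM) and RIPK4 were higher in the SMAD4-expressing libraries, RIPK2 overlapped, and RIPK3, a kinase of necroptosis, was listed at 0 in all 14 against 0.567 to 2.99 TPM. Of 15 genes for RIPK4 partners and epithelial regulators, 1 was higher, 9 were lower and 5 overlapped, beside 15.4% higher and 14.6% lower among all genes. The median difference of this list in mean log2(CPM + 1), SMAD4-expressing minus SMAD4-low, was -2.63, against 0.01 over all 16008 genes. PKP1, which encodes the desmosomal plakophilin that RIPK4 phosphorylates, had 0 to 6.14 TPM in the SMAD4-expressing libraries and 17.1 to 44.9 TPM in the others, and TP63, a regulator of stratified epithelium, had 0 to 0.494 against 78.7 to 138 TPM. GRHL3, another regulator of the epidermal barrier, was the 1 gene that was higher, with 2.76 to 36.5 against 0.0999 to 2.31 TPM. RIPK4 thus was expressed where TP63 was at or near 0 and PKP1 was lower, and was at 0 where both were higher.

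**Figure D5:**
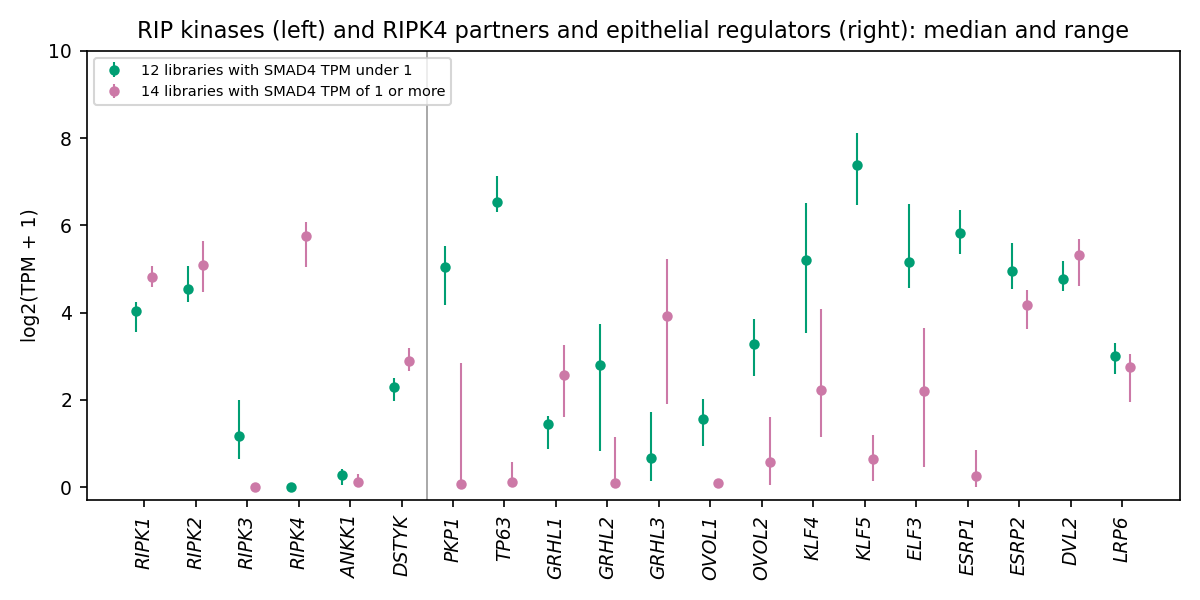
Median and range of log2(TPM + 1) for the RIP kinase genes and for RIPK4 partners and epithelial regulators, in the 12 SMAD4-low and the 14 SMAD4-expressing libraries. RIPK4 and GRHL3 are higher in the SMAD4-expressing libraries, whereas TP63, KLF5 and ESRP1 are high in the SMAD4-low libraries.

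The counts for the families of PRDM15, C2CD2 and ZBTB21, which include these 3 genes chosen for the pattern, stand beside shares of 15.4% higher and 14.6% lower among all genes. Of 12 tested PRDM genes, 4 were higher in the SMAD4-expressing libraries, PRDM15 and PRDM16 among them, 3 were lower (PRDM6, PRDM13 and MECOM) and 5 overlapped. PRDM16, a regulator of brown fat, had 8.36 to 18.8 against 0 to 0.611 TPM, and MECOM, a regulator of blood stem cells, had 0.0857 to 1.33 against 8.6997 to 24.6 TPM. Of 7 tested C2CD genes, 2 were higher (C2CD2 and C2CD4C) and 5 overlapped. Of 37 tested ZBTB genes, 6 were higher, 5 were lower and 26 overlapped, shares near those of all genes, and ZBTB21 was the only ZBTB gene among them at 0 in a whole set of libraries. Of 13 genes for MX1, MX2 and other interferon-stimulated genes, 0 were higher, 5 were lower (MX1, OAS1, OAS2, IFI44 and IFI44L, beside 14.6% of all genes) and 8 overlapped, with a median difference of -3.04. None of the genes of these lists was called between labels by edgeR.

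Some markers of cell type moved with the split that the 5 genes follow, and the epithelial ones did so in different directions. The summed level of 4 mesenchymal markers was 12.4 to 129 TPM in the SMAD4-low and 3109 to 4565 TPM in the SMAD4-expressing libraries, with VIM and ZEB1 higher, FN1 lower and CDH2 overlapping. The summed level of 5 epithelial markers was 2255 to 4960 against 2026 to 8412 TPM, with CDH1 and EPCAM lower and KRT8, KRT18 and KRT19 overlapping. Although they overlapped, KRT8 and KRT18 had the higher median in the SMAD4-expressing libraries (461 against 2053 and 521 against 1598 TPM). KRT19 had the lower median there (1966 against 1220 TPM). All 4 acinar markers (summed level under 1 TPM) were under 1 TPM in every library. Summed levels were 0.431 to 30.2 against 0.0314 to 3.54 TPM for 4 immune markers, among which PTPRC, the common leukocyte antigen, reached at most 0.535 TPM and CD14 up to 29.1 TPM, and 3.16 to 16.97 against 0.321 to 5.39 TPM for 3 endothelial markers. They were 9.65 to 27.95 against 2.66 to 39.4 TPM for 4 fibroblast markers and 0.541 to 4.003 against 0.867 to 5.56 TPM for 2 erythroid markers. The part of these cell states in the expression of the 5 genes was not tested, and the split, the marker levels and the stretch cannot be told apart in these libraries.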

How the data were processed

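Messenger RNA of 26 SCDCLs was sequenced from both ends, 1 library each, and groups were taken from the labels. The authors assigned the reads with kallisto (0.46.1, per the labels) to an Ensembl annotation of GRCh38 and deposited TPM, effective lengths and estimated counts for 41078 genes. In the deposited estimated counts, TPM is multiplied by the mean length of a gene's transcripts and brought to the total of each library. Counts from 30 repeat quantifications on redrawn reads, also deposited by the authors, are not length-scaled. Of these, 5 per library were used, which replaced another 5 after values from that first set had been seen, because of how their columns are named and not for their values, and 650 columns of per-sample values were not used. Lengths the authors gave for genes at 0 are averages and were not interpreted. Of the genes, 36315 were matched to GENCODE 44 by identifier, and a gene without a match has no position here.

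Estimated counts were rounded, filtered with filterByExpr and tested between labels with edgeR 4.0.16 (TMM, quasi-likelihood test, Benjamini-Hochberg over all genes tested, adjusted p under 0.05 and absolute log2 fold change over 1). DESeq2 1.42.0, limma 3.58.1 (R 4.3.3), other scalings and pseudocounts (0.1 and 5 in place of 1), no filter, SMAD4 as covariate and leaving out each library were alternatives. The split by a SMAD4 TPM of 1 was part of the choice of the genes, so values across it are given without a test. The variation of TMPRSS2 and RIPK4 among the SMAD4-expressing libraries was part of it too, so p-values for this pair are descriptive. P-values for neighbouring pairs in level are also descriptive, since their order was read from the same libraries. Correlations used 100000 permutations in Python 3.11.15 (scipy 1.17.1). They were planned on both sides of the split, and 10 pairs on 1 side remained. The edgeR test was tried on simulated counts whose true changes were set.

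The 5 genes and the gene lists were chosen with earlier results of these data known. The genes named are the 5, SMAD4, VIM, CDH1 and CDKN2A, genes within 1 Mb, the lists, the markers, and the genes whose ranks were most like or opposite to TMPRSS2 and RIPK4. Some genes of the lists enter the counts and medians but are not reported here by name or in a figure. Other genes in runs were named after their values were seen. CDKN2A was at 0 TPM in all 26 libraries. Depth limits low values: 3 counts are the limit that a count of 0 allows, and intervals cover counting error only. P-values measure the spread between libraries. The response to gemcitabine was not analysed here.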

Additional observations from a re-analysis of the deposited data

How the results depend on the processing

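All 5 genes stayed without overlap between SMAD4-low and SMAD4-expressing libraries in CPM, with library totals, with DESeq2 size factors and in the mean of the repeat quantifications. Genes called between labels numbered 0 with edgeR and limma, whereas DESeq2 called 2 with all libraries, 11 in the SMAD4-low and 1 in the SMAD4-expressing libraries, and 13 for the interaction; the cause was not tested. In the comparison of labels over all 26 libraries, which alone was repeated without each library in turn, edgeR called between 0 and 0 genes. The log2 fold change between labels, far inside its error for all 5 genes, changed sign for RIPK4 with limma (-0.46) and for ZBTB21 with SMAD4 as covariate (0.11). With each library left out it ranged from 0.26 to 1.36 for TMPRSS2, -0.15 to 0.19 for RIPK4, -0.27 to 0.16 for PRDM15, -0.59 to -0.23 for C2CD2 and -0.32 to 0.039 for ZBTB21. The SD of TMPRSS2 fell to 1.66 with a pseudocount of 5, since its lowest libraries have under 10 CPM, and ranged from 1.73 to 2.21 with each library left out. That of the others ranged from 0.27 to 0.33 (RIPK4), 0.28 to 0.41 (PRDM15), 0.25 to 0.30 (C2CD2) and 0.20 to 0.26 (ZBTB21).

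Of the 10 pairs, 1 passed over 14 libraries, and 0 did without the 2 farthest libraries or, a choice made after seeing the data, in the 11 libraries other than 18, 22 and 23, which are the lowest for TMPRSS2 and RIPK4. Signs of r that changed belonged to pairs past no threshold, apart from TMPRSS2 with RIPK4 (-0.152 in the 11 libraries). They were TMPRSS2 with C2CD2 (0.515 without the 2 farthest, 0.681 in the 11), RIPK4 with C2CD2 (0.201 in the 11), TMPRSS2 with ZBTB21 (0.0556 in TPM, 0.000388 with DESeq2 size factors, 0.0609 without the 2 farthest), RIPK4 with PRDM15 (0.0138 in TPM, 0.0987 in the repeats), RIPK4 with ZBTB21 (-0.0594 in the repeats), PRDM15 with C2CD2 (-0.343 without the 2 farthest, -0.0511 in the repeats) and PRDM15 with ZBTB21 (0.164 in TPM). The repeat quantifications and the subsets by label were also added after seeing the data. No paired analysis was possible because the library numbers of the labels are not shared between groups.

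Depth limits the values of the SMAD4-low libraries and of TMPRSS2 in library 18, where few reads stand behind each. The error of repeat quantification covers only reads and their assignment. That error rests on 5 of 30 repeats and moved with the choice of repeats: with the 5 used first, it was smaller for TMPRSS2 and C2CD2 and larger for RIPK4, PRDM15 and ZBTB21, and it was below the spread between libraries for all 5 genes with either set.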
